A study of Mus musculus with 12 samples.

Results

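Genes that mark T cells and natural killer (NK) cells, 10 in number, were measured in lung tumors that arose in mice after CRISPR/Cas9 mutagenesis delivered without a virus, and in normal mouse lung. The genes are Cd3d, Cd3e, Cd3g, Cd4, Cd8a, Nkg7, Gzma, Gzmb, Prf1 and Ncr1. They were chosen by name, and 10 of 10 were found among the 30399 genes of the deposited table. Poly-A RNA sequencing covered 5 samples labelled normal lung and 7 labelled tumor. The labels give no strain, age, sex or targeted gene for either group, and do not say whether the normal lungs had received the mutagenesis reagents. The tumor titles carry a number, 159 for tumors 3 and 4 and 201 for tumors 5, 6 and 7, while tumors 1 and 2 have numbers of their own. The titles of tumors 1 and 7 hold the Spanish word for trachea. Nothing states that this number is an animal, and p-values over the 7 tumors measure only the spread between these samples.

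T cells recognise antigen through a receptor that signals by the CD3 chains, with CD4 or CD8 as co-receptor. NK cells kill without that receptor, through activating and inhibitory receptors such as NKp46, the product of Ncr1. Both cell types carry granules in which perforin opens the target cell to granzymes. In normal lung they lie in the vessels, the interstitium and the airway wall. None of the 10 genes is perfectly specific: Cd8a is also made by cross-presenting dendritic cells, Cd4 by some myeloid cells and Gzmb by mast cells.

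Promoters were available from RefSeq (build GRCm38.p6, 250 bases before to 50 after the start) for 9 of the 10 genes, Cd4 not among them. The 4 shown are those of Cd3d, whose tumor values were among the lowest, of Cd8a, whose log2 values had the largest SD across tumors of the 10, and of Prf1 and Ncr1, which were low in every tumor. Capitals mark the letters AGGAAG, the core of an Ets motif, and TGTGGT, the core of a Runx motif, on either strand (CTTCCT and ACCACA on the other). The windows are chr9:44981536-44981835 on the plus strand for Cd3d, chr6:71373177-71373476 on the plus strand for Cd8a, chr10:61297586-61297885 on the plus strand for Prf1 and chr7:4337465-4337764 on the plus strand for Ncr1 (the first of 2 listed for that gene).
Cd3d: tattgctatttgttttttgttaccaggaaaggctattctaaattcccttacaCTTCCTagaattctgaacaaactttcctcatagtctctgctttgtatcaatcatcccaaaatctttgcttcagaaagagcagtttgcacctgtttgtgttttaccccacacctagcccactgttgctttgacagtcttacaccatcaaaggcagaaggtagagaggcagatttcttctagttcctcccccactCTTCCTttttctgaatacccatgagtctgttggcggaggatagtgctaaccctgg
Cd8a: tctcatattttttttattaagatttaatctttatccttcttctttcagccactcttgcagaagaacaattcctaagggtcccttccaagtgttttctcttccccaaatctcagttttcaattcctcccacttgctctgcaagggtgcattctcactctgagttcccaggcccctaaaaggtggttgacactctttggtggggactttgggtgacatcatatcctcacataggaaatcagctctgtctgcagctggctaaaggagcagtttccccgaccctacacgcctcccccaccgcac
Prf1: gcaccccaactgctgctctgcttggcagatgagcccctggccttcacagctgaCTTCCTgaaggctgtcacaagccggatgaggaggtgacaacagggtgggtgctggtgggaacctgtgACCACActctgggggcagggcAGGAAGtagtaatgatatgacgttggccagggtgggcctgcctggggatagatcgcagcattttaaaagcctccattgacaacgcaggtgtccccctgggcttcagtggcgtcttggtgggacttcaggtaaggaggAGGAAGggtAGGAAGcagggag
Ncr1: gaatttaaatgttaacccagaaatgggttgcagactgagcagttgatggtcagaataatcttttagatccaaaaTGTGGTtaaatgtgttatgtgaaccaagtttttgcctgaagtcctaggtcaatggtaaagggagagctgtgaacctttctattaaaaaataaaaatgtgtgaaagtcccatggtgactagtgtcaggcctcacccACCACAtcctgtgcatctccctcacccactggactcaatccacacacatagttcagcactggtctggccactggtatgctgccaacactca
AGGAAG was found in 4 of the 9 member promoters and in 35.4% of 32851 promoters of 300 bases, and TGTGGT in 5 of 9 and in 16.8%. The Prf1 window held 4 matches to AGGAAG and 1 to TGTGGT, the Cd3d window 2 and 0, the Ncr1 window 0 and 2, and the Cd8a window none of either. AGGTGT, the core of a T-box motif, was in 6 of the 9 and in 13.7% of all promoters. AGATAA, the core of a GATA motif, was in 1 of the 9 and in 11.2% of all promoters. TATAAA, the TATA box, was in 0 of the 9 and in 13.6%. These are matches of letters in a short window and show no binding.

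Values are read counts divided by a size factor per sample, called normalized counts here. Gene-assigned reads per library numbered 11126432 to 17032234 for the normal lungs and 13093843 to 24217633 for the tumors, and 3 reads correspond to at most 4.85 normalized counts for a normal lung and 3.57 for a tumor. A tumor value at or under that floor cannot be told from 0, and such floors cover counting error only. The labelled tissues were checked on defining markers. Summed over 5 lung epithelium genes the normal lungs had 200865 to 379639 normalized counts and the tumors 457 to 2266, while 5 neuroendocrine genes summed to 97.8 to 132 in normal lung and 20814 to 102932 in tumors. Tumor 7 stood apart in its content of other tissue, with 31336 normalized counts over 3 heart muscle genes against at most 3058 in any other sample. Tumor 7 also had the lowest neuroendocrine sum of the tumors, 20814, with 29608 to 102932 in the others.

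Lower levels in tumor than in normal lung were found for 9 of the 10 genes by limma (all but Cd8a), and 62 of the 70 single tumor values lay below every normal lung. Of those 70 values, 35 rested on 3 reads or fewer and 15 were listed at 0. The exceptions came from 2 libraries: tumor 7, with 6 genes within the normal range and Cd8a above it, and tumor 6, with Cd8a above it. Over all 23674 genes tested with limma, 30.1% were lower in tumor and 31.4% higher at the same threshold, an adjusted p under 0.05. The median log2 fold change was -4.94 over the 10 genes and 0.04 over all genes tested. Summed markers of several other cell types of the normal lung were lower as well in most tumors. In tumors 1 to 6, 4 genes of all leukocytes summed to 437 to 3861 normalized counts, against 7701 to 13281 for the normal lungs and 16281 for tumor 7. For 3 B cell genes the tumors had 28.8 to 463 and the normal lungs 1615 to 4033, and for 4 endothelial genes 2143 to 7163 and 39730 to 52537. For 4 neutrophil genes tumor 2 had 4523, within the normal range of 2059 to 5245, and the other tumors had 1.98 to 350. In tumor 2 S100a8 was at 212% and S100a9 at 170% of the normal median. All of these leukocyte, B cell, endothelial and neutrophil markers were called lower in tumor by limma, and their part in the fall of the 10 genes was not tested. In bulk tissue, fewer cells of a type and less RNA per cell cannot be told apart.

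**Figure D1:**
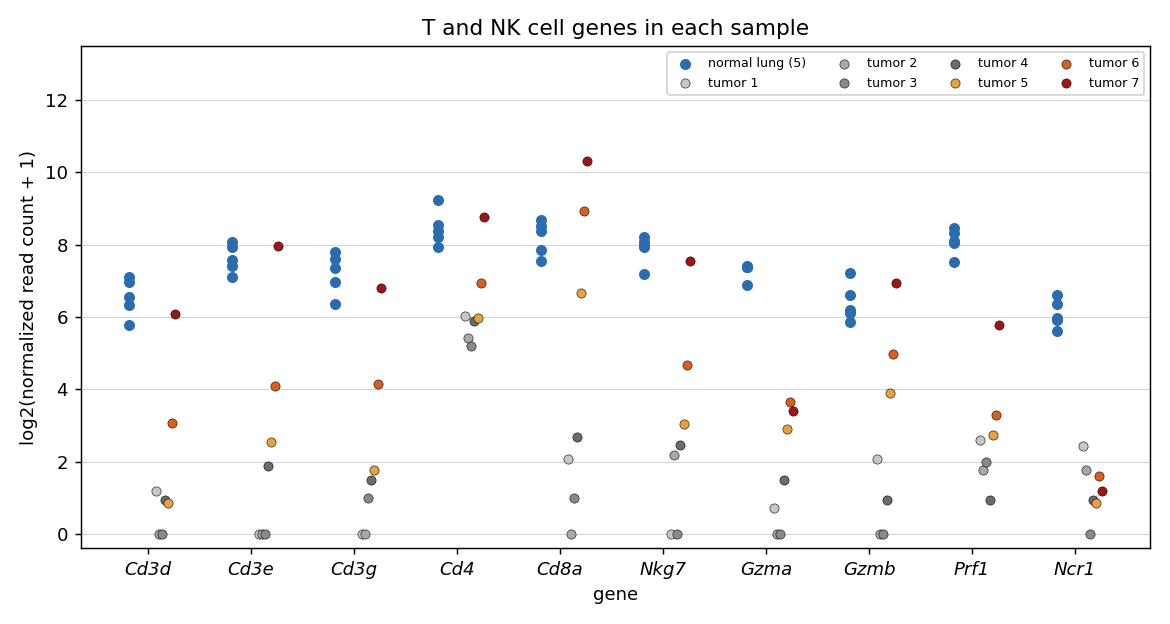
Each point is 1 sample, with the gene on the x axis and log2(normalized read count + 1) on the y axis; blue points are the 5 normal lungs and grey to red points are tumors 1 to 7. Tumors 1 to 5 lie below all normal lungs for all 10 genes, tumor 6 does so for 9, and tumor 7 for 3.

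The CD3 chains, the signalling parts of the T cell receptor complex, were nearly absent from most tumors. Cd3e (ENSMUSG00000032093) was at 245, 190.3, 266, 169 and 138 normalized counts in the 5 normal lungs, in order. In tumors 1 to 7 it had 0, 0, 0, 2.69, 4.85, 16.2 and 248. The first 3 tumors had no Cd3e read at all, while tumor 7 fell among the normal lungs with 387 reads. The log2 fold change of Cd3e came to -5.27 with an SE of 1.17 (limma adjusted p = 0.00157), and the call was lost in edgeR with TMM factors (-2.02, adjusted p = 0.192) and in DESeq2 (-2.14, adjusted p = 0.215). Cd3d (ENSMUSG00000032094) had 92.9, 125, 137, 79.0 and 54.0 normalized counts in normal lung, against 1.27, 0, 0, 0.898, 0.809, 7.41 and 66.6 in the tumors. Cd3g (ENSMUSG00000002033) had 164, 223, 194, 124 and 81.6 in normal lung, against 0, 0, 0.991, 1.80, 2.43, 16.8 and 111 in the tumors. Both genes showed the same order as Cd3e at the upper end, with tumor 7 inside the normal range, tumor 6 well below it and the others at a few reads. Their log2 fold changes were -4.82 (SE 0.90, limma adjusted p = 4.27e-04) for Cd3d and -5.05 (SE 1.01, limma adjusted p = 7.42e-04) for Cd3g. Summed over the 3 chains, tumor 2 had 0 reads, tumor 3 had 1 and tumor 1 had 2, against 238 to 500 in the normal lungs.

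The co-receptors differed from the CD3 chains in the size of the change, while their log2 values ran along with them across the 7 tumors (Pearson r of 0.938 to 0.997 for Cd4 and 0.864 to 0.924 for Cd8a with the 3 chains). Cd3d and Cd3g had 3 reads or fewer in 5 of the 7 tumors and Cd3e in 4, so these r values rest mainly on the remaining tumors. Cd4 (ENSMUSG00000023274), which marks helper T cells, had 374, 329, 604, 296 and 244 normalized counts in normal lung. In tumors 1 to 7 it had 63.9, 41.7, 35.7, 58.4, 61.5, 123 and 438. No tumor came near 0, with 35 reads or more in each, although 3 of these tumors had no Cd3e read. Its log2 fold change of -2.14 (SE 0.52, limma adjusted p = 0.00296) was the smallest in size of the 10. Relative to Ptprc, which encodes CD45 of all leukocytes, Cd4 stood at 0.116 to 0.194 in normal lung, at 1.13 in tumor 1, 0.500 in tumor 2, 0.722 in tumor 4, 0.266 in tumor 5, 0.162 in tumor 6 and 0.133 in tumor 7. Tumors 6 and 7 were within the normal range and the other 4 above it, and tumor 3 had too few Ptprc reads for a ratio. Macrophage markers, 5 genes, summed to 281 to 1354 normalized counts in tumors 1 to 6 and 4269 to 7339 in normal lung. They were unequal: in tumor 3 Cd68 was at 151 and Mrc1 at 67.4, but Adgre1 at 3.97 and Marco at 0.991, which is under the floor. Their part in the Cd4 values was not tested.

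Cd8a (ENSMUSG00000053977), the alpha chain of CD8, varied most among the tumors. It had 411, 367, 334, 229.9 and 185 normalized counts in normal lung, against 3.17, 0, 0.991, 5.39, 100.3, 489 and 1284 in tumors 1 to 7. Tumors 1 to 5 were below all normal lungs and tumors 6 and 7 above them, so the groups overlapped. The SD of its log2 values was 4.09 across tumors and 0.48 across normal lungs. The log2 fold change of -3.68 (SE 1.61) did not pass the threshold in limma (adjusted p = 0.0618). It passed in limma without tumor 7 (-4.64, adjusted p = 0.00858) and without tumor 6 (-4.41, adjusted p = 0.0247, background 29.2% lower). It also passed with same-numbered tumors treated as correlated (-4.31, adjusted p = 0.0256, background 29.0%) and without the 2 trachea-titled tumors (-4.34, adjusted p = 0.0177, background 32.0%). These passing fits leave out tumor 6 or 7 or give same-numbered tumors less weight. Cd8a did not pass in limma with 0.1 or 10 added, other filters, equal totals or quantile normalization. Nor did it pass with any normal lung or any of tumors 1 to 5 left out, or with a Y-linked covariate. The limma adjusted p over these fits was 0.0564 to 0.113. In edgeR with TMM factors on recovered reads the Cd8a value had the other sign (0.15, adjusted p = 0.929), as in DESeq2 (0.05, adjusted p = 0.978).

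Cd8b1, the beta chain that pairs with Cd8a on conventional CD8 T cells, did not share that excess. Cd8b1 (ENSMUSG00000053044) had 95.4 to 172 normalized counts across the normal lungs, and tumors 1 to 7 had 4.43, 11.9, 8.92, 6.29, 14.6, 27.0 and 123. The ratio of Cd8a to Cd8b1 counts was 1.94 to 2.49 in the normal lungs, and 6.89, 18.2 and 10.4 in tumors 5, 6 and 7. All 3 tumors with enough reads for a ratio (at least 10 of each gene) were above every normal lung. Xcr1, a receptor of cross-presenting dendritic cells, had 77.0 to 213 normalized counts across the normal lungs, and tumors 1 to 7 had 0, 2.38, 0, 1.80, 112, 508 and 1376. The ratio of Cd8a to Xcr1 was 0.899, 0.963 and 0.933 in tumors 5, 6 and 7, a narrow range, against 1.57 to 2.40 in normal lung. Clec9a, another gene of those dendritic cells, was likewise above the normal maximum of 1866 in tumor 7, at 3905, and within the normal range in tumor 6, at 1671. Summed over 5 dendritic cell markers, tumor 7 had 9619 normalized counts and tumor 6 had 4415, against 3654 to 4722 in normal lung and 639 to 1431 in tumors 1 to 5. In tumors 1 to 4 most of that sum was Zbtb46, at 553 to 884, while Clec9a was at 4.43 to 25.0. Their part in the Cd8a values was not tested.

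**Figure D2:**
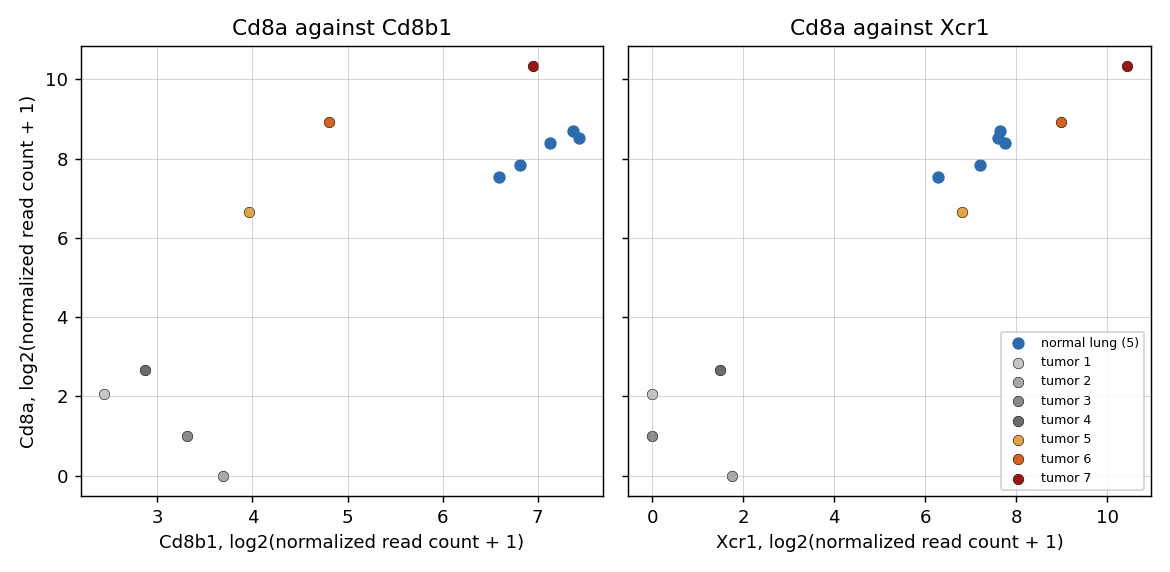
Cd8a on the y axis is plotted against Cd8b1 (left) and Xcr1 (right) on the x axis, all as log2(normalized read count + 1), with 1 point per sample. Tumors 5, 6 and 7 lie above the line of normal lungs on the left, and on the right they follow Xcr1 at a Cd8a to Xcr1 ratio of 0.899 to 0.963.

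The granule genes split in 2. Prf1 (ENSMUSG00000037202), which encodes perforin, had 184, 318, 350.5, 274 and 261 normalized counts in normal lung. In tumors 1 to 7 it had 5.06, 2.38, 2.97, 0.898, 5.66, 8.76 and 53.8. Gzma (ENSMUSG00000023132), granzyme A, had 116.1, 164, 165, 165 and 169 in normal lung, and 0.633, 0, 0, 1.80, 6.47, 11.5 and 9.61 in the tumors. Every tumor was below every normal lung for both genes, tumor 7 included. The log2 fold changes were -5.36 for Prf1 (SE 0.66, limma adjusted p = 1.12e-05) and -5.55 for Gzma (SE 0.67, limma adjusted p = 9.89e-06).

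Gzmb and Nkg7 reached the normal range in tumor 7. Gzmb (ENSMUSG00000015437), granzyme B, had 56.7, 72.0, 147, 95.9 and 67.8 normalized counts in normal lung, against 3.17, 0, 0, 0.898, 13.8, 30.3 and 122 in tumors 1 to 7. Nkg7 (ENSMUSG00000004612), a granule membrane protein of cytotoxic cells, had 249, 296, 269.7, 244 and 143.7 in normal lung, and 0, 3.57, 0, 4.49, 7.28, 24.3 and 187.01 in the tumors. The log2 fold changes were -3.71 for Gzmb (SE 1.08, limma adjusted p = 0.00905) and -5.03 for Nkg7 (SE 1.07, limma adjusted p = 0.00112). In normal lung Gzma exceeded Gzmb 1.12 to 2.49 times, and in tumors 6 and 7 the ratio was 0.378 and 0.0785. Tumor 7 also held mast cell transcripts: Cpa3 was at 96.7 normalized counts (118 to 213 in normal lung), Ms4a2 at 57.6 (8.08 to 40.9) and Mcpt4 at 270.3 (0 to 25.8). In tumors 1 to 6 the 4 mast cell and basophil markers summed to 0 to 25.1, and Mcpt8 was at 0 in tumor 7. Their part in the Gzmb value was not tested. Gzmb belongs to a cluster of similar granzyme genes whose reads can be shared, of which Gzmc had at most 5.64 normalized counts in any sample.

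Ncr1 (ENSMUSG00000062524), the most NK-restricted of the 10, was at or near the floor in every tumor, tumor 7 included. It had 47.7, 81.7, 59.8, 62.1 and 96.6 normalized counts in normal lung, against 4.43, 2.38, 0, 0.898, 0.809, 2.02 and 1.28 in tumors 1 to 7. The highest tumor rested on 7 reads, and 6 of the 7 tumors had 3 reads or fewer. Ncr1 changed by -4.85 on the log2 scale (SE 0.42, limma adjusted p = 4.13e-07). Across the 7 tumors, log2 values of the other 9 genes had Pearson correlations of 0.664 to 0.997 with each other (36 pairs), while the 9 pairs with Ncr1 ran from -0.12 to 0.16. These are descriptions over 7 tumors with 4 title numbers, in which the points share libraries and most Ncr1 values are at the floor. Of the 70 tumor values of the 10 genes, 35 rest on 3 reads or fewer.

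Ncr1, Gzma and Prf1 were the 3 genes whose tumor values all lay below the normal lungs, against 18.4% of all genes tested. Per kilobase of annotated exon, the normal lung median was highest for Nkg7 (272 normalized counts per kilobase) and Gzma (164), then Prf1 (106), Cd8a (91.9) and Cd4 (81.6). Cd3d, Gzmb, Cd3g, Cd3e and Ncr1 lay between 51.2 and 40.3. In tumor 7 the order was changed, with Cd8a first (353 per kilobase), then Nkg7 (205), and with Gzma at 9.55 and Ncr1 at 0.832.

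Tumors 5, 6 and 7, which share the title number 201, had the highest mean log2 values over the 10 genes, at 3.12, 4.54 and 6.48, against 0.92 to 1.96 in tumors 1 to 4 and 7.01 to 7.75 in normal lung. Summed over the 8 genes other than Cd4 and Cd8a, tumors 1 to 7 had 14.6, 8.34, 3.97, 14.4, 42.1, 117.3 and 800 normalized counts, and the normal lungs 1012 to 1589. Tumor 7 had 0.659 times the normal median on this sum while its Ptprc, at 3291, exceeded the normal maximum of 3120. Relative to Ptprc, tumor 7 was within the normal range for Cd3e (0.0753, normal 0.0669 to 0.0854), Cd4 and Gzmb. It was below that range for Cd3d, Cd3g and Nkg7 (0.0568, normal 0.0723 to 0.122), for Prf1 (0.0163, normal 0.0629 to 0.137) and for Gzma (0.00292, normal 0.0396 to 0.0850). Cd8a relative to Ptprc was 0.390 in tumor 7, 0.645 in tumor 6 and 0.434 in tumor 5, above the normal range of 0.0931 to 0.140. The cause of tumor 7 holding more of these transcripts was not tested, and its heart muscle and neuroendocrine sums are given above. Of 4 thymus markers, limma called 3 higher in tumor (Ptcra, Dntt and Foxn1) and Prss16 lower, against 31.4% and 30.1% of all genes. Ptcra rested on 3 reads or fewer in 4 of the 7 tumors and on 6 reads in tumor 7. In tumor 7 Ptcra was at 3.84 normalized counts, above the normal maximum of 1.29, Dntt at 8.33 and Foxn1 at 1.28, within the normal range, and Prss16 at 5.12, below the normal minimum of 11.5. Their part in the tumor 7 values was not tested.

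**Figure D3:**
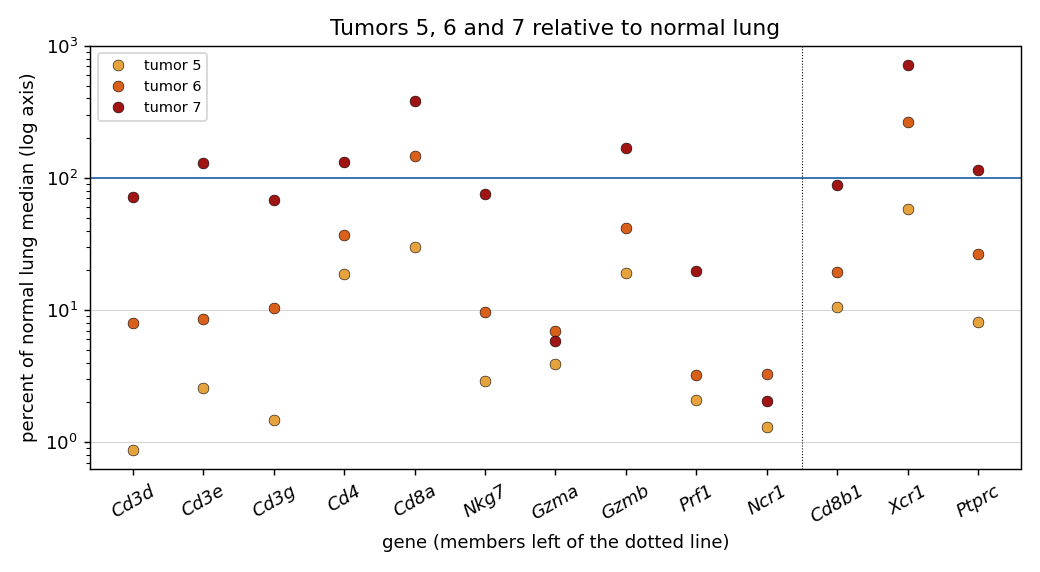
The value of each gene in tumors 5, 6 and 7 is given as a percentage of the median of the 5 normal lungs (y axis, log scale; blue line at 100 percent), for the 10 genes and for Cd8b1, Xcr1 and Ptprc. Tumor 7 reaches 384% for Cd8a and 130% for Cd3e but 19.7% for Prf1, 5.83% for Gzma and 2.06% for Ncr1.

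Other T cell genes were lower in most tumors. Of 30 listed genes of the receptor complex, its signalling and the T lineage, 27 were in the table and tested, of which 25 were lower in tumor by limma, against 30.1% of all genes. On recovered reads 14 were lower in edgeR, with either scaling, and 13 in DESeq2. Over all genes edgeR called 26.3% lower with TMM and 28.7% with the deposited scaling, and DESeq2 24.7%. How many list genes passed the filters of these tests is not given here. The number higher was 0 in limma, also at an unadjusted p under 0.05, and 0 in edgeR and in DESeq2. The list's median log2 fold change was -3.36. Gata3, a factor of helper T cells that is also used by endothelium and epithelium, had the largest fall (-6.72, SE 0.96, adjusted p = 4.64e-05), then the adhesion receptor Cd2 (-6.23, SE 0.92, adjusted p = 5.84e-05). Cd247, the zeta chain of the receptor complex, was below normal lung in all 7 tumors at 3.57 to 239.5 normalized counts, against 358 to 462. Its annotated span overlaps that of Pou2f1 on the other strand, a gene that was higher in tumor (log2 fold change 0.98, SE 0.22), so its count is uncertain. Trac, the constant part of the receptor alpha chain, had 0 to 29.7 normalized counts in tumors 1 to 6 and 209 in tumor 7, within the normal range of 124 to 310.1. Trbc1 and Trbc2, near-identical copies that can share reads, reached 93.5 and 81.3 in tumor 7, both under the normal minima of 109 and 108.

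The proximal kinases of the receptor were held at a higher level. Lck had 36.9 to 127 normalized counts in tumors 1 to 6, where Cd3e was at most 16.2, and 231 to 460.3 in normal lung (log2 fold change -1.65, SE 0.40, limma adjusted p = 0.00306). Zap70 had 26.7 to 86.1 in those tumors (log2 fold change -2.41). The adaptor Lat (-2.18) and the receptor Cd5 (-2.64) were lower too. The 2 listed genes that did not pass were Bcl11b, a T lineage factor also found in neurons, at -1.53 (adjusted p = 0.188) with 447 normalized counts in tumor 5 and 4.43 in tumor 1, and the adaptor Skap1, at -2.26 (adjusted p = 0.0702) with 1128 in tumor 5 and 6.94 in tumor 3.

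Of 30 listed cytotoxic and NK genes, 29 were in the table and tested. Limma called 24 lower in tumor and 1 higher, against 30.1% and 31.4% of all genes, and the median log2 fold change was -3.66. On recovered reads 16 were lower in edgeR, with either scaling (26.3% and 28.7% of all genes), and 17 in DESeq2 (24.7%). The 1 higher call was lost with same-numbered tumors correlated. The inhibitory receptor gene Klra4 was at 1 read or 0 in all tumors, against 19.4 to 41.4 normalized counts in normal lung (log2 fold change -4.61, SE 0.33, adjusted p = 6.18e-08), although its family holds near-identical copies. Klrb1c, which encodes NK1.1, had at most 8.97 in any tumor, with normal lungs at 46.4 to 86.0. The other listed lectin-like receptors fell on both sides of normal lung in tumor 7. Klrd1, which encodes CD94, had 282 normalized counts there (104 to 210.2 in normal lung) and Klrk1, which encodes NKG2D, had 346 (131 to 199.98). Klrg1 (28.8) and Klre1 (36.5) were within the normal range. Klrc1 and Klrc2, whose products pair with CD94, had 10.9 and 6.40, below the normal minima of 14.1 and 16.9. Klra8 had 3.20, far below its normal range of 21.0 to 41.9, and Klra1 had 1.28, within a normal range of 0 to 9.69. Cd226, an activating receptor, had the largest fall of the list (-5.44, SE 0.96, adjusted p = 2.59e-04). The cytokine receptor chain Il2rb (-3.93), the chemokine Ccl5 (-3.41), the cytokine Ifng (-2.39) and the factor Tbx21 (-2.02) were lower as well, with Ccl5 at 431 and Tbx21 at 243 normalized counts in tumor 7. Eomes, a factor of NK and memory CD8 T cells, stayed below normal lung in every tumor, at 36.5 in tumor 7 and a normal minimum of 51.7.

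Granzyme genes outside the 10 behaved differently from Gzma. Gzmk, made by memory-type T cells, had 8.46 to 29.0 normalized counts in normal lung, against 2.53, 8.34, 6.94, 6.29, 19.4, 32.3 and 84.5 in tumors 1 to 7, with tumors 6 and 7 above all normal lungs. The Gzmk change of -0.20 on the log2 scale (SE 0.69, limma adjusted p = 0.813) did not pass. The ratio of Gzmk to Gzma was 2.82 in tumor 6 and 8.80 in tumor 7, and 0.0680 to 0.176 in the 3 normal lungs with at least 10 reads of each. Gzmm ranged from 49.9 to 163 across the tumors, with normal lungs at 51.7 to 77.6 (log2 fold change 0.20, adjusted p = 0.573). The 1 listed gene that was higher in tumor, Cd160 (0.65, SE 0.26, limma adjusted p = 0.0435), ran from 36.4 to 57.5 across the tumors, with normal lungs at 23.2 to 40.4. That call was lost without normal lung 1, 2, 4 or 5 and without tumor 1, 4, 5 or 7 (0.56 to 0.67, adjusted p 0.0607 to 0.110). Its span overlaps Pdzk1 on the other strand, which was higher too (0.92, SE 0.21).

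Among 20 listed genes that bring in or keep T and NK cells, 14 were in the table and tested. Limma called 11 lower in tumor and 1 higher, against 30.1% and 31.4% of all genes, with a median log2 fold change of -3.55. On recovered reads 6 were lower in edgeR, with either scaling (26.3% and 28.7% of all genes), and 6 in DESeq2 (24.7%). The homing receptor Ccr2, also made by myeloid cells, was among those that fell (log2 fold change -5.86, SE 0.76, limma adjusted p = 1.95e-05). Il7, a survival factor for T cells, was at 0.991 to 33.3 normalized counts across the tumors, with normal lungs at 101 to 145.7. Cxcr3, the receptor of activated T cells for Cxcl9, had 0.633, 0, 0.991, 7.18, 26.7, 209 and 716 in tumors 1 to 7, with normal lungs at 60.9 to 405. Cxcl9 itself had 3.80, 7.15, 0, 2.69, 55.8, 162 and 424, against 13.8 to 381, and its change of -2.34 (SE 1.38, limma adjusted p = 0.158) did not pass. The exception in direction was Itgae, the CD103 integrin chain of tissue-resident T cells and of some dendritic cells. It had 191, 206, 127, 200.3, 421, 836 and 1479 normalized counts in tumors 1 to 7, against 56.4 to 189.6 in normal lung (log2 fold change 1.65, SE 0.56, limma adjusted p = 0.0206). Without normal lung 4 the Itgae call was lost (1.42, adjusted p = 0.0592).

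The genes whose log2 values most resembled the mean of the 10 across the 7 tumors were sought among 17928 genes with a mean of at least 3. The closest were Rinl (Pearson r 0.998), Havcr2 (0.996), Mgl2 (0.996), Itpr1 (0.995), Gm49662 (0.992), Cd40 (0.992), Ccr7 (0.992) and AC102342.2 (0.991). Without tumors 6 and 7, the 2 farthest from the median, r was 0.929 to 0.993 over the 5 remaining tumors. Spearman's rho over 7 tumors was 0.893 to 1. Havcr2, the checkpoint receptor TIM-3 of exhausted T cells and of dendritic cells, had 615 normalized counts in tumor 6 and 2368 in tumor 7, above the normal maximum of 511. Ccr7, the lymph node homing receptor of naive T cells and mature dendritic cells, had 1970 in tumor 7 against 407 to 825 in normal lung. Cd40 and Mgl2 are known from B cells and myeloid cells. The points share libraries, and the 7 tumors carry 4 title numbers.

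Tests on read counts called fewer of the 10 genes. On recovered reads of 11 samples, edgeR with TMM factors called 4 of the 10 genes lower: Cd3d, Gzma, Prf1 and Ncr1, against a background of 26.3% of genes. Tumor 3 was left out by a rule on its scaling step, given below, although its values also matched whole reads. It had 9 of the 10 genes at 3 reads or fewer, and the count tests were not run with it. With the deposited scaling edgeR called 5, Cd4 in addition, against 28.7%. DESeq2 called 6 of the 9 it tested, Cd3d, Cd3g, Cd4, Gzma, Prf1 and Ncr1, against 24.7%. The calls lost in edgeR with TMM factors had smaller fold changes there than in limma: -2.68 for Cd3g (adjusted p = 0.0689), -2.53 for Nkg7 (adjusted p = 0.0664), -1.49 for Gzmb (adjusted p = 0.227) and -1.38 for Cd4 (adjusted p = 0.0621). Cd3d, still called, was at -2.76 in edgeR. The sizes are unlike measures: limma compares means of log2 values, while edgeR and DESeq2 compare mean counts, in which a high library weighs more. For Cd3e the tumor mean was 38.8 normalized counts and the tumor median 2.69. Limma without tumor 3 called 9 of 10 against a background of 29.0%. Without tumor 7 limma called 10 of 10 against a background of 32.1%. Gzma, Prf1, Ncr1 and Cd3d were called lower in each of these fits.

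**Figure D4:**
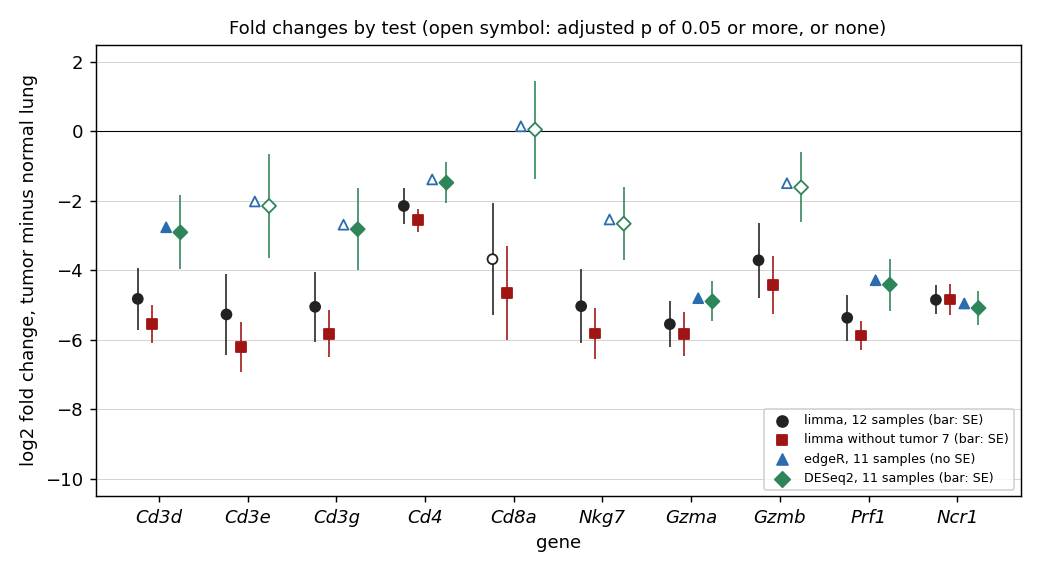
Log2 fold changes (tumor minus normal lung, y axis) of the 10 genes are given for limma with 12 samples, limma without tumor 7, edgeR with TMM factors and DESeq2, with bars for the SE where the tool gives one and open symbols where the adjusted p is 0.05 or more or not given. Gzma, Prf1 and Ncr1 lie between -4.28 and -5.87 in all 4 fits, and Cd8a runs from -4.64 without tumor 7 to 0.15 in edgeR.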

How the data were processed

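Per the labels' protocols, tissue was kept in RNALater, RNA was purified with the miRNeasy kit, and poly-A libraries were read on a NovaSeq as paired ends of 150 bases. The submitters' processing notes name featureCounts, DESeq2 and the build GRCm39. The aligner, annotation, strand setting and versions are not given in the sources used here. As deposited, each sample's column holds a signal: read counts that the authors had divided by a factor per sample. In every column 100% of values were whole multiples of a step within 0.001 reads, and the reciprocals of the steps equal median-of-ratios size factors, which gave back whole reads. For tumor 3 the step (0.991) is too near 1 for the rule used, although its values matched whole reads like the others, so count tests used 11 samples.

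Genes were named with GENCODE M21, which matched 29982 of 30399 identifiers; gene coordinates are not given because that annotation is on another build. Exon lengths for levels per kilobase are unions of its exons. The test was limma 3.58.1 (trend, R 4.3.3) on log2(value + 1), over all 12 samples and the genes whose mean reached 1, with Benjamini-Hochberg adjustment over 23674 genes. Fold changes from limma are differences of mean log2(value + 1), where the added 1 shrinks changes of low genes. Those of edgeR and DESeq2 compare mean counts, so their sizes and those of limma are not directly comparable. edgeR 4.0.16 and DESeq2 1.42.0 ran on recovered reads. The limma settings were tried on simulated counts with the same spread setting in both groups and without low genes. That differs from the 10 genes here, whose log2 values spread more in tumors and often rest on few reads. The 10 genes, the lists and the tests were chosen with earlier results of these data known. Named genes are the 10, listed partners and markers, the 2 largest changes and 2 largest adjusted p per list, and the 8 most similar genes. Itgae, Cd160, Il7, Pou2f1 and Pdzk1 were named after their values were seen. Foxp3, Cxcr6 and the other listed genes with no entry were not analysed here. Some genes that this rule names are not reported here.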

Additional observations from a re-analysis of the deposited data

Results flagged for a closer look

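For 35 genes (the 10 and 25 partner genes) each group's highest and lowest log2 value was compared with its neighbours by Dixon's ratio, in 70 groups in all. In 6 groups a sample stood apart, where chance gives about 3.5. In normal lung 5 Nkg7 was 143.7 normalized counts against 244 to 296 in the others, and in normal lung 1 Gzma was 116.1 against 164 to 169. Normal lung 2 had the highest Eomes, 105 against 51.7 to 59.8. Normal lung 1 had 1.29 for Ptcra, a thymocyte gene, which is 1 read against 0 in the others. Tumor 7 had the highest Lat, 161 against 24.3 to 45.1, and the highest Klrd1, 282 against 0.991 to 14.8. No explanation of these values was tested.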

How the results depend on the processing

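Limma called 9 or 10 of the 10 genes lower under every limma alternative run: pseudocounts of 0.1 and 10, other filters, equal totals, quantile normalization, same-numbered tumors averaged or correlated, the trachea-titled tumors left out, and each sample left out in turn (9 to 10). A pair of alternatives was chosen after seeing the data: a Y-linked covariate left 9, and leaving out tumors 6 and 7 gave 10. Equal totals moved the median over all genes from 0.04 to 0.24 on the log2 scale, and no fold change of the 10 turned sign there. The tests on recovered reads gave fewer calls. Lower members numbered 4 in edgeR with TMM and 5 with the deposited scaling. For the T cell list 14, 14 and 13 genes were lower in edgeR with TMM, edgeR with the deposited scaling and DESeq2, against 25 in limma. For the cytotoxic and NK list the numbers were 16, 16 and 17 against 24, and for the homing list 6, 6 and 6 against 11. Over all genes these tests called 26.3%, 28.7% and 24.7% lower, against 30.1% in limma. The 1 higher cytotoxic gene, Cd160, was 0 with no filter, with same-numbered tumors averaged or correlated, without the trachea-titled tumors, with the Y-linked covariate, and without tumors 6 and 7, and 0 to 1 when samples were left out in turn. The 1 higher homing gene, Itgae, was 0 with the Y-linked covariate and 0 to 1 when samples were left out, lost without normal lung 4. The cause was not tested. No paired analysis was possible because the labels give the groups no shared replicate numbers. Depth limits the low end: genes such as Ncr1 rest on a handful of reads in tumors.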
